A study of Mus musculus with 6 samples.

Results

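Genes of heterotrimeric G protein signalling and its cyclic nucleotide arm were examined in newborn neocortex of wild-type and conditional Tcf4 knockout mice. Tcf4 is a basic helix-loop-helix transcription factor that binds E-box motifs. The set was defined by gene symbol alone, and was chosen with earlier results of these data known. It took the regulators of G protein signalling (Rgs followed by a number, leaving out the pericyte gene Rgs5), the G alpha, G beta and G gamma subunits, the adenylyl cyclases, the genes named Pde, the subunits of protein kinase A (PKA) and Ppp1r1b. Of the 15703 genes in the deposited table, 75 were members, namely 16 Rgs genes, 11 G alpha, 4 G beta and 7 G gamma subunits, 10 adenylyl cyclases, 20 Pde genes, 6 PKA subunits and Ppp1r1b. All 75 were tested, because no filter was added to the table the authors deposited. Their mean over the libraries was at least 1 FPKM (fragments for each kilobase of exon, normalised for sequencing depth) in 67 and lower in 8.

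The series asked how loss of Tcf4 changes gene expression. Conditional knockout (cKO) mice carried floxed Tcf4 alleles and Emx1Cre (Tcf4 f/f; Emx1Cre/+), and the others were wild type (WT), which the labels describe no further. Every animal was C57BL/6 and was taken at postnatal day 0, and whole neocortex was profiled by RNA-seq in 3 cKO and 3 WT libraries, called cKO 1 to 3 and WT 1 to 3. Emx1 drives Cre in dorsal forebrain progenitors, which give rise to the excitatory neurons and much of the glia of the cortex, so interneurons, microglia and vessels keep their Tcf4 alleles, and the RNA of all these cells was measured together.

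In this pathway a receptor at the cell surface loads GTP onto a G alpha subunit, which parts from its G beta and G gamma partners. Gs and Golf stimulate adenylyl cyclases to make cyclic AMP (cAMP), Gi inhibits them, and Gq acts through phospholipase C, while RGS proteins end the signal by speeding GTP hydrolysis. PKA is the main kinase that cAMP activates, phosphodiesterases break cAMP and cyclic GMP (cGMP) down, and in the developing cortex cAMP and cGMP act in neuronal migration, axon growth and early network activity.

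The targeted gene and the markers of other cells gave the setting of these values. Tcf4 had 56.5, 60.6 and 55.3 FPKM in the cKO libraries, against 71.2, 75.6 and 75.3 FPKM in the WT libraries. It was thus lower in every cKO library, by 0.36 on the log2(FPKM + 1) scale (SE 0.0617, adjusted p = 0.00411), and still far above 0; a gene-level value also counts reads from exons that Cre does not remove. Tests were made with limma on that log2 scale with p adjusted over all genes by Benjamini-Hochberg, and a gene is called where its adjusted p was under 0.05. About 25.5 to 26.7 M reads in cKO libraries and 25.3 to 28.8 M reads in WT libraries stood behind the listed genes, as estimated from the steps between low values. The same estimate put the library sizes at 23.2 to 26.1 M, in each library below the reads of its listed genes. These read numbers are thus approximate and give no exact depth. Markers of several cell classes differed between the groups. Intermediate progenitor and dividing cell markers summed to 35.3 to 49.7 FPKM in cKO libraries and 25.0 to 29.6 FPKM in WT libraries, and 4 of 4 were called higher. Radial glia and astrocyte markers summed to 322 to 416 FPKM in cKO libraries and 525 to 538 FPKM in WT libraries, with 3 of 7 lower and none higher. Without Fabp7, the marker with the highest level, the other 6 summed to 64.2 to 75.8 FPKM in cKO libraries and 71.3 to 79.8 FPKM in WT libraries, which overlap, and 3 of the 7 (Sox2, Pax6 and Hes5) had positive differences that did not pass. Microglial markers summed to 11.9 to 17.0 FPKM in cKO libraries and 20.1 to 22.9 FPKM in WT libraries, with 3 of 6 lower, and oligodendrocyte lineage markers to 39.1 to 48.3 FPKM in cKO libraries and 54.6 to 62.1 FPKM in WT libraries, with 2 of 4 lower. Without Olig1 the oligodendrocyte sums overlapped, at 19.2 to 23.9 FPKM in cKO libraries and 22.1 to 28.3 FPKM in WT libraries. Projection neuron markers summed to 622 to 666 FPKM in cKO libraries and 573 to 618 FPKM in WT libraries, with 1 of 7 lower. Without Neurod6, which made up most of that sum, the direction turned, with 281 to 297 FPKM in cKO libraries and 301 to 315 FPKM in WT libraries. GABAergic interneuron markers summed to 185 to 200 FPKM in cKO libraries and 182 to 209 FPKM in WT libraries, with 3 of 8 lower. Without Npy, the highest of them, the sums were apart, at 78.9 to 89.2 FPKM in cKO libraries and 100.4 to 109 FPKM in WT libraries, and 7 of the 8 markers had negative differences. None of the 4 endothelial and 4 mural markers measured was called, while 1 of 5 red blood cell and 1 of 2 choroid plexus markers were lower. The part of these shifts in the results on the 75 genes was not tested. In whole tissue, fewer cells of a type and less RNA per cell cannot be told apart.

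Members changed in both directions. Of the 75 genes, 12 rose and 10 fell in cKO neocortex, and 53 did not pass the test, of which 12 had an unadjusted p under 0.05. That is 29.3% called, where 15.8% of all genes in the table were called (7.22% higher and 8.59% lower). Among genes with a mean of at least 1 FPKM, 28.4% of members and 16.5% of all genes were called. Because the members were chosen with earlier results of these data known, these shares only describe the set and were not tested. The median difference, cKO minus WT, was -0.01 over the members and 0.0017 over all genes on the log2 scale, so both medians were near 0, and the median size of the difference was 0.17 over the members and 0.13 over all genes. The cKO and WT libraries did not overlap in 34 members, 17 with cKO higher and 17 with cKO lower, and 37.3% of all genes did not overlap (18.5% with cKO higher and 18.7% with cKO lower).

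Rescaling every library to the same summed FPKM, an alternative added after the data were seen, moved this split to 15 members higher and 6 lower, and that of all genes to 1769 higher and 1045 lower. The median of all genes moved to 0.05 under that scaling. Summed FPKM was lower in every cKO library (247355 to 255491) than in every WT library (260100 to 270433), so the scaling raised cKO values against WT values. By the median gene the deposited libraries were already alike. Of the called members 18 stayed called under equal summed FPKM, and the calls of Adcy2, Adcy9, Gng4 and Pde1a were lost. Which scaling is right was not tested. Of the 22 called members, 10 passed without each of the 6 libraries in turn. These were Rgs8, Rgs2, Rgs7bp, Gnai1, Adcy8, Adcy7 and Pde4b, which were higher, and Rgs9bp, Pde1c and Pde9a, which were lower. For the other 12, the libraries without which the call was lost are given with each gene class. The libraries carry different codes in their titles and were taken as different animals, which the titles do not state. The p-values rest on the spread between the 3 libraries of each group, moderated by limma over all genes.

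**Figure D1:**
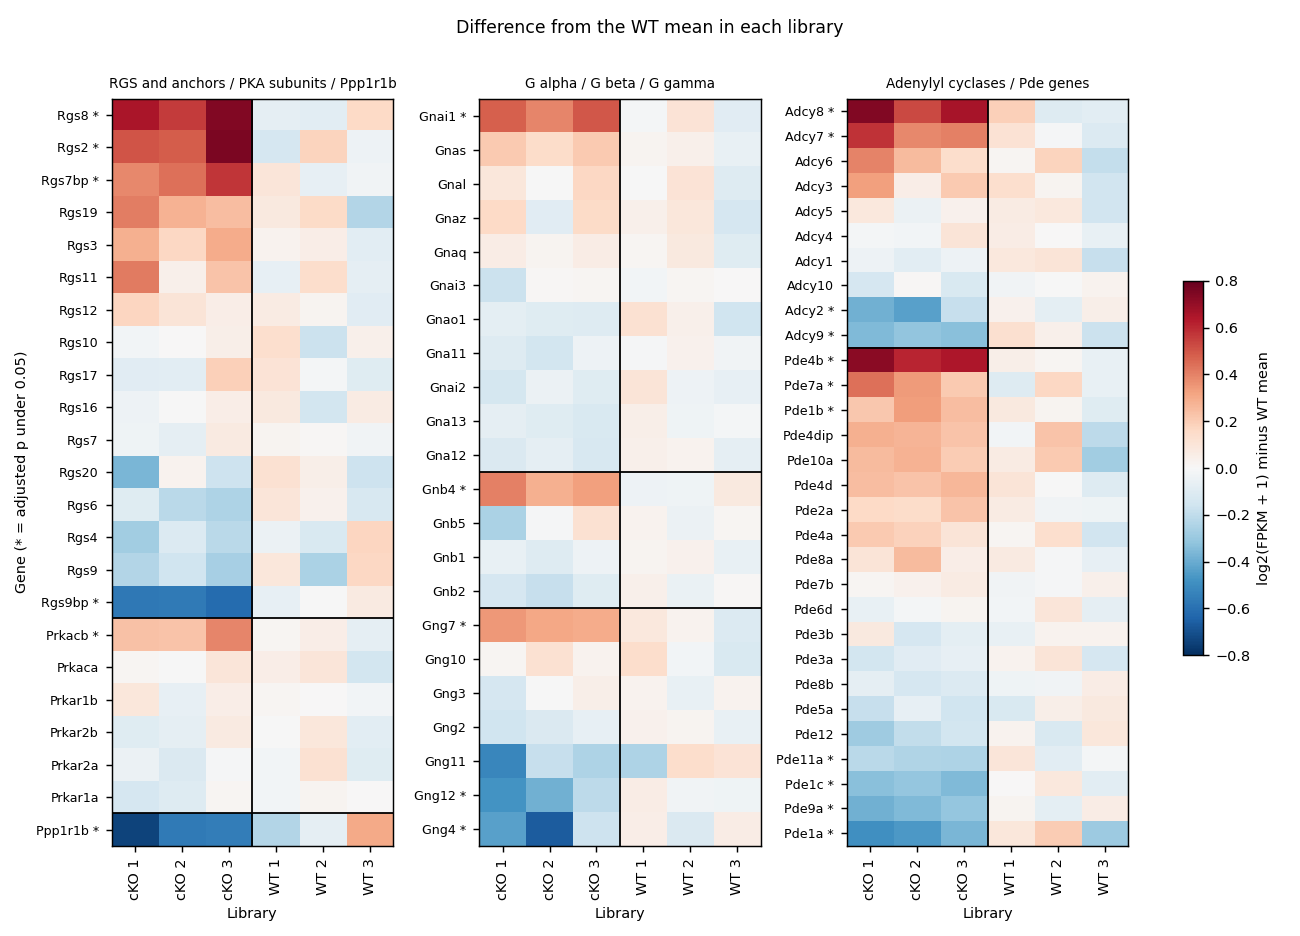
Difference of each member from its WT mean on the log2(FPKM + 1) scale, for 3 cKO and 3 WT libraries, in 3 columns of gene classes sorted within class by the cKO minus WT difference; asterisks mark the 22 called members. Red is higher and blue is lower than the WT mean, and among the strongest colours in the cKO columns are Rgs8, Rgs2, Adcy8 and Pde4b among the higher members and Ppp1r1b, Gng4, Rgs9bp and Gng12 among the lower ones.

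Among the G alpha subunits, Gnai1 rose and the other 10 did not pass. Gnai1 (ENSMUSG00000057614, chromosome 5, 18265135 to 18360355, minus strand, mm10) encodes a Gi subunit that inhibits adenylyl cyclase. It had 57.2, 53.8 and 58.0 FPKM in the cKO libraries, against 40.3, 44.1 and 38.2 FPKM in the WT libraries. The lowest cKO library lay well above the highest WT library. The difference was 1.38-fold, or 0.45 on the log2 scale (SE 0.0688, adjusted p = 0.00208), and this was the member with the highest level among those that passed without each library in turn. Gnai1 made up 24.7% ± 0.890 of the summed FPKM of the 5 Gi, Go and Gz subunits in cKO libraries and 18.5% ± 0.925 in WT libraries (SD, n = 3 each). The sum itself was 228 ± 4.17 FPKM in cKO libraries and 220.4 ± 11.5 FPKM in WT libraries.

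The other abundant alpha subunits were close in level between the groups. Gnaq, which activates phospholipase C beta, averaged 80.0 ± 1.20 FPKM in cKO libraries and 77.5 ± 4.76 FPKM in WT libraries (SD, n = 3 each). Its difference was 0.05 on the log2 scale, with a 95% interval of -0.09 to 0.19 (adjusted p = 0.647). Gnao1, the main Go subunit of brain, averaged 58.4 ± 0.426 FPKM in cKO libraries and 62.6 ± 6.24 FPKM in WT libraries, with an interval of -0.26 to 0.08. Gnai3, another Gi subunit, averaged 52.9 ± 3.92 FPKM in cKO libraries and 54.7 ± 0.695 FPKM in WT libraries, with an interval of -0.20 to 0.10. The libraries of the groups overlapped for each of these 3 genes. Over the 10 alpha subunits that did not pass, the log2 differences lay between -0.11 and 0.19, and the widest intervals reached -0.26 and 0.35. The adjusted p nearest to the threshold was 0.103. Gnas, a Gs gene singled out after its values were seen, gave that value, the 0.19 and the 0.35. It averaged 5.90 ± 0.186 FPKM in cKO libraries and 5.05 ± 0.223 FPKM in WT libraries. Of its exon bases 22.0% overlap other annotated genes, so its values are uncertain.

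Gnb4 was the beta subunit that rose. G beta and G gamma form a tight pair that anchors G alpha at the membrane and signals to channels and cyclases once released. Gnb4 (ENSMUSG00000027669, chromosome 3, 32580332 to 32616585, minus strand) had 9.14, 8.34 and 8.62 FPKM in the cKO libraries, against 6.44, 6.48 and 7.07 FPKM in the WT libraries. All cKO libraries were above all WT libraries, 1.31-fold on average (log2 difference 0.34, SE 0.0716, adjusted p = 0.0114). The call was lost without WT 1 or without cKO 1 (adjusted p of 0.0509 to 0.0526).

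Most G beta message came from Gnb1, which averaged 235 ± 5.30 FPKM in cKO libraries and 247 ± 8.41 FPKM in WT libraries and was 69.7% ± 0.323 of the summed G beta FPKM in cKO libraries and 69.3% ± 1.15 in WT libraries. Its interval on the log2 scale was -0.20 to 0.06 (adjusted p = 0.448). Gnb2 averaged 83.7 ± 2.5 FPKM in cKO libraries and 92.2 ± 3.01 FPKM in WT libraries. Its groups did not overlap, yet the difference of -0.14 did not pass (adjusted p = 0.136). Gnb5, the beta subunit that pairs with R7 RGS proteins rather than acting as a usual G beta, averaged 9.94 ± 1.42 FPKM in cKO libraries and 10.2 ± 0.323 FPKM in WT libraries (adjusted p = 0.762).

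Of the 7 gamma subunits, Gng7 rose and Gng12 and Gng4 fell. Gng7 (ENSMUSG00000048240, chromosome 10, 80948624 to 81014945, minus strand) is known from mouse striatum as the partner of Golf. It had 18.7, 18.2 and 18.0 FPKM in the cKO libraries, against 15.4, 14.8 and 13.4 FPKM in the WT libraries. The groups were apart, with a 1.26-fold difference (log2 0.32, SE 0.0691, adjusted p = 0.0128). Gnal, the gene of Golf itself, did not pass and overlapped between the groups, at 27.0 to 30.5 FPKM in cKO libraries and 25.1 to 29.2 FPKM in WT libraries; it was singled out after its values were seen. The Gng7 call was lost without cKO 1 (adjusted p = 0.0523).

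Gng12 (ENSMUSG00000036402) had 5.28, 5.70 and 6.57 FPKM in the cKO libraries, against 8.12, 7.58 and 7.55 FPKM in the WT libraries. The highest cKO library stayed below the lowest WT library, and the mean was 1.32-fold lower in cKO (log2 difference -0.36, SE 0.0843, adjusted p = 0.0192). Gng4 (ENSMUSG00000021303) had 5.09, 4.18 and 6.33 FPKM in the cKO libraries, against 7.54, 6.61 and 7.58 FPKM in the WT libraries. The groups were apart by a narrow margin between cKO 3 and WT 2, and the mean was 1.39-fold lower in cKO (log2 difference -0.42, SE 0.119, adjusted p = 0.0383). Neither call held in every fit that left out 1 library. That of Gng12 was lost without WT 1, cKO 1 or cKO 2 (0.0722 to 0.0802), and that of Gng4 without WT 1, WT 3, cKO 1 or cKO 2 (0.0947 to 0.123) and under equal summed FPKM (0.0585).

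These 3 gamma subunits were minor ones by level. Gng2, a main gamma subunit of neurons, averaged 235 ± 7.56 FPKM in cKO libraries and 254 ± 9.16 FPKM in WT libraries, among the most abundant members with Gnb1, and did not pass (log2 difference -0.11, interval -0.25 to 0.02, adjusted p = 0.216). Gng3, another neuronal gamma subunit, averaged 113 ± 7.29 FPKM in cKO libraries and 115 ± 4.14 FPKM in WT libraries (adjusted p = 0.782). Of the exon bases of Gng2 and Gng3, 20.4% and 24.2% overlap a gene on the opposite strand in GENCODE M21. The strand setting of the counting is not given in the sources used here, so reads of those bases cannot be told apart.

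Of the 10 adenylyl cyclases, Adcy8 and Adcy7 rose and Adcy2 and Adcy9 fell. Adcy8 (ENSMUSG00000022376, chromosome 15, 64697084 to 64922296, minus strand) encodes a cyclase that calcium and calmodulin stimulate. It had 4.15, 3.46 and 3.87 FPKM in the cKO libraries, against 2.53, 1.87 and 1.91 FPKM in the WT libraries. Every cKO library was above every WT library, 1.82-fold on average (log2 difference 0.64, SE 0.104, adjusted p = 0.00320). Adcy7 (ENSMUSG00000031659, chromosome 8, 88272403 to 88329962, plus strand) encodes a cyclase that G beta-gamma can stimulate together with Gs. It had 1.8, 1.45 and 1.48 FPKM in the cKO libraries, against 1.04, 0.866 and 0.741 FPKM in the WT libraries. Again the groups were apart, 1.79-fold (log2 difference 0.45, SE 0.0934, adjusted p = 0.0102).

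Adcy2, a second beta-gamma-stimulated cyclase (ENSMUSG00000021536), moved opposite to Adcy7. It had 4.93, 4.73 and 5.80 FPKM in the cKO libraries, against 6.92, 6.31 and 6.97 FPKM in the WT libraries. All cKO libraries were lower, with a mean 1.31-fold below WT (log2 difference -0.33, SE 0.0860, adjusted p = 0.0279). Adcy9 (ENSMUSG00000005580), a widely expressed cyclase that forskolin hardly activates, had 2.31, 2.39 and 2.35 FPKM in the cKO libraries, against 3.63, 3.36 and 2.75 FPKM in the WT libraries. The cKO values lay close together and below the spread of the WT values, with a mean 1.38-fold lower in cKO (log2 difference -0.34, SE 0.0955, adjusted p = 0.0398). Neither fall held throughout. The Adcy2 call was lost without WT 1, WT 3, cKO 1 or cKO 2 (0.0653 to 0.112), the Adcy9 call without any library but WT 3 (0.0712 to 0.144), and under equal summed FPKM their adjusted p was 0.0514 for Adcy2 and 0.0762 for Adcy9.

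The cyclase with the highest level did not pass. Adcy1, which like Adcy8 responds to calcium and calmodulin and is known for its role in the maturation of the somatosensory cortex map, averaged 53.2 ± 0.905 FPKM in cKO libraries and 55.5 ± 6.07 FPKM in WT libraries. It held 54.1% ± 1.08 of the summed FPKM of the 10 cyclases in cKO libraries and 56.9% ± 0.669 in WT libraries, while Adcy8 held 3.88% ± 0.228 in cKO libraries and 2.16% ± 0.326 in WT libraries. Adcy5 and Adcy6, which Gi and calcium inhibit, did not pass. Adcy5 averaged 13.7 ± 0.651 FPKM in cKO libraries and 13.5 ± 1.30 FPKM in WT libraries, with an interval on the log2 scale of -0.15 to 0.20. Adcy6 averaged 13.4 ± 1.29 FPKM in cKO libraries and 11.0 ± 1.54 FPKM in WT libraries, with an interval of 0.04 to 0.49 (adjusted p = 0.105). Summed over the 10 genes the level was 98.4 ± 3.18 FPKM in cKO libraries and 97.5 ± 9.69 FPKM in WT libraries.

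**Figure D2:**
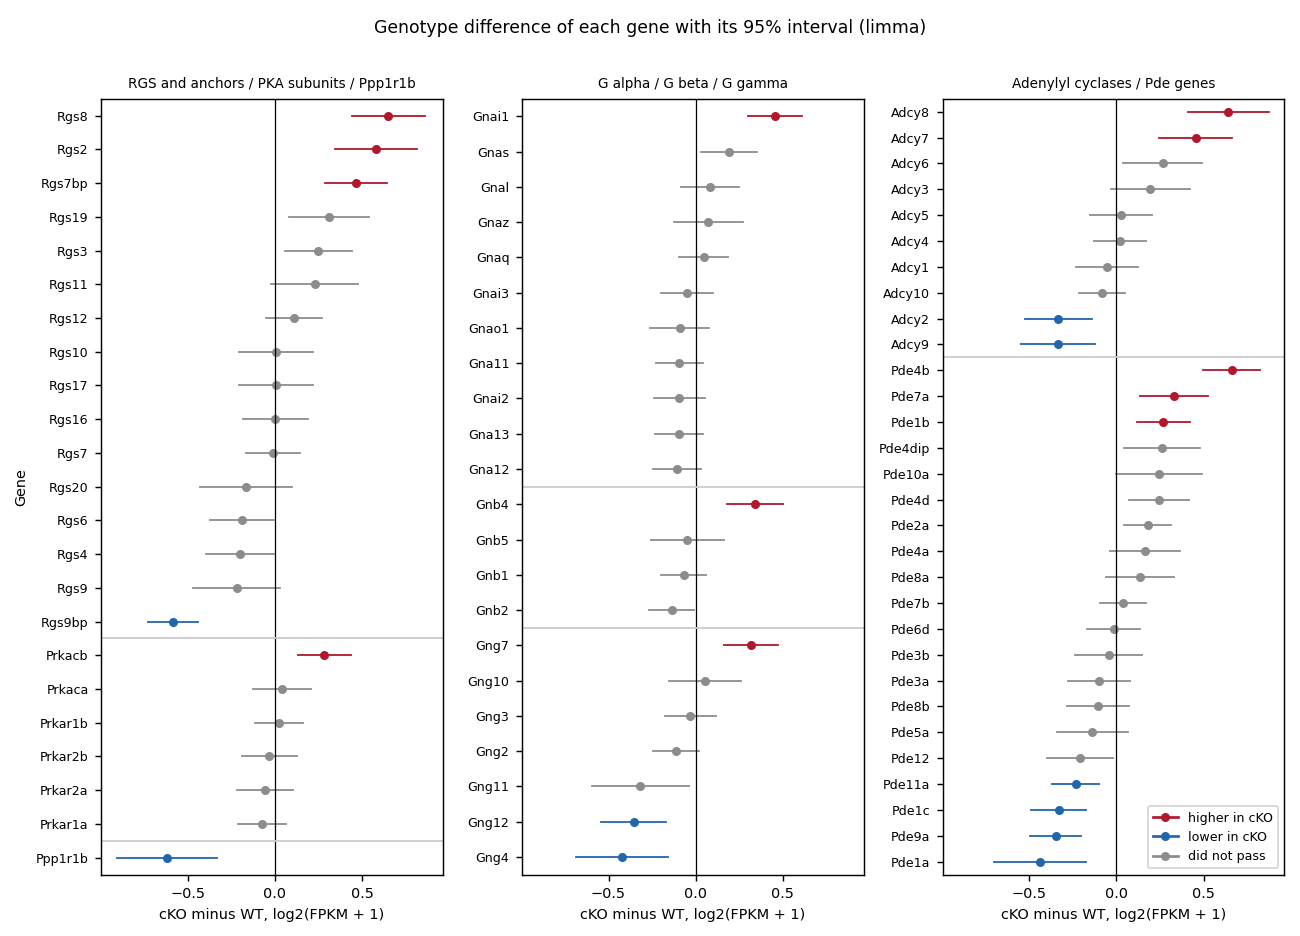
Difference of cKO minus WT on the log2(FPKM + 1) scale for the 75 members (points) with 95% limma intervals (bars), by gene class; red points were called higher in cKO, blue points lower, and grey points did not pass. Adcy8, Pde4b and Rgs8 lie near 0.65 at the high end, Ppp1r1b and Rgs9bp near -0.6 at the low end, and the PKA subunits other than Prkacb lie close to 0.

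Of the 20 Pde genes, 3 rose, 4 fell and 13 did not pass, 35.0% called, where 15.8% of all genes were called. Pde4b and Pde7a rose among the 7 that act on cAMP alone, Pde9a fell and Pde5a did not pass among the 2 that act on cGMP alone, and among the 8 that act on both Pde1b rose while Pde1a, Pde1c and Pde11a fell. The 3 that are no cyclic nucleotide esterase (Pde6d, a carrier of prenylated proteins, Pde4dip, a centrosome and Golgi scaffold, and Pde12, a mitochondrial RNA enzyme) did not pass.

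Promoter windows of 4 called phosphodiesterase genes are shown because each holds the hexamer CAGGTG or its reverse complement CACCTG, an E-box that E-proteins such as Tcf4 are known to bind. The windows span 250 bases before and 50 after a RefSeq start (GRCm38.p6) and are written 5′ to 3′ on the gene's strand, with the hexamer in capitals. They are Pde4b window 2 of 4, chr4:102569810-102570109, plus strand, Pde1b window 2 of 3, chr15:103506876-103507175, plus strand, Pde1c window 1 of 3, chr6:56362343-56362642, minus strand, and Pde1a window 1 of 4, chr2:79908350-79908649, minus strand.
Pde4b: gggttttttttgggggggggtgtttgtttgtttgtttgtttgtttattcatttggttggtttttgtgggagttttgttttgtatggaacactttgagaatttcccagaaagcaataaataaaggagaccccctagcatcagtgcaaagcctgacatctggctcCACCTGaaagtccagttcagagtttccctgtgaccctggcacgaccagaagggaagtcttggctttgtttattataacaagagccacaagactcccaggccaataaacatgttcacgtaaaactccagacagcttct
Pde1b: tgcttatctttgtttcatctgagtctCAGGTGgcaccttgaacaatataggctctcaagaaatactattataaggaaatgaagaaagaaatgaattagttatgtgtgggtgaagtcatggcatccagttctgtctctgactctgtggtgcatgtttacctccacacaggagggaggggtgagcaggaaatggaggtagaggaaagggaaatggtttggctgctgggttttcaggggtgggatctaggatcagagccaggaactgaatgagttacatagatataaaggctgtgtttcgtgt
Pde1c: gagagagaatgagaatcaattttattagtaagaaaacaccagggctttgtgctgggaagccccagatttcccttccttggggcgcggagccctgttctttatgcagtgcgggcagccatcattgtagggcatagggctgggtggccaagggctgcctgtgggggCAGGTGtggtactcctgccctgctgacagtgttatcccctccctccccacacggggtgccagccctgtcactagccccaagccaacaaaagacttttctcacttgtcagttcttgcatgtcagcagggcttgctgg
Pde1a: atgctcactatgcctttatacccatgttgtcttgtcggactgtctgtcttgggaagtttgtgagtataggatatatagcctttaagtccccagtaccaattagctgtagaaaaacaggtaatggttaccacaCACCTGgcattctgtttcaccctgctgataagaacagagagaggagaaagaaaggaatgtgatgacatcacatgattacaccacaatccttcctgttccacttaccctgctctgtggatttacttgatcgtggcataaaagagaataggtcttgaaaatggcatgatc
The hexamer starts at -87 from the start site in Pde4b, -224 in Pde1b, -86 in Pde1c and -118 in Pde1a. The first 2 genes rose and the other 2 fell. RefSeq windows were found for 60 of the 75 members, 110 windows in all. The hexamer, searched on both strands, was in 4 of 21 windows of members that rose (19.0%), 3 of 14 of members that fell (21.4%) and 18 of 75 of members that did not pass (24.0%). It was in 18.0% of the 13499 windows of genes in the table and in 20.2% of all 32851 windows. The looser motif CANNTG, which includes the hexamer, was in 72.7% of member windows, 63.8% of windows of genes in the table and 72.3% of all windows. A match of letters is not a binding site, and no binding data were used here.

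Pde4b (ENSMUSG00000028525, chromosome 4, 102087543 to 102607259, plus strand, mm10) encodes a cAMP-specific enzyme that rolipram inhibits, and was the most clearly raised phosphodiesterase. It had 8.20, 7.48 and 7.74 FPKM in the cKO libraries, against 4.75, 4.64 and 4.33 FPKM in the WT libraries. Values varied little within each group and were far apart between them, 1.71-fold (log2 difference 0.66, SE 0.0730, adjusted p = 0.000361). Leaving out any library kept the adjusted p at or below 0.00337. Pde7a, a cAMP-specific enzyme that rolipram does not inhibit, averaged 19.0 ± 1.58 FPKM in cKO libraries and 14.97 ± 1.62 FPKM in WT libraries, 1.27-fold higher (log2 difference 0.33, SE 0.0884, adjusted p = 0.0322). The highest WT library (16.8 FPKM) was just under the lowest cKO library (17.4 FPKM), and the call was lost without WT 1, WT 3, cKO 1 or cKO 2 (0.0741 to 0.121).

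Pde9a (ENSMUSG00000041119, chromosome 17, 31386210 to 31476310, plus strand) encodes an enzyme with high affinity for cGMP. It had 11.8, 12.01 and 12.4 FPKM in the cKO libraries, against 15.9, 14.8 and 16.3 FPKM in the WT libraries. The 3 cKO libraries clustered below all WT libraries, and the mean was 1.30-fold lower in cKO (log2 difference -0.35, SE 0.0659, adjusted p = 0.00666).

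The calmodulin-activated Pde1 family split. Pde1b (ENSMUSG00000022489), which has the highest level of the 20 genes, had 27.8, 30.2 and 28.4 FPKM in the cKO libraries, against 25.1, 24.1 and 22.1 FPKM in the WT libraries. Its groups did not overlap, with a 1.21-fold rise (log2 difference 0.27, SE 0.0684, adjusted p = 0.0263), a call lost without WT 3, cKO 1, cKO 2 or cKO 3 (0.0513 to 0.116). Pde1c (ENSMUSG00000004347) had 0.453, 0.482 and 0.436 FPKM in the cKO libraries, against 0.834, 0.944 and 0.727 FPKM in the WT libraries. It was low in all libraries and lowest in the cKO ones, 1.83-fold below WT (log2 difference -0.33, SE 0.0706, adjusted p = 0.0119), and it passed without each library in turn. The added pseudocount of 1 makes the log2 difference of such a low gene smaller than the ratio of its means. Pde1a averaged 5.16 ± 0.284 FPKM in cKO libraries and 7.43 ± 1.44 FPKM in WT libraries, 1.44-fold lower (log2 difference -0.44, SE 0.118, adjusted p = 0.0322). Of its WT libraries WT 3 stood lowest, at 5.81 FPKM, near the cKO range. The Pde1a call was lost without any library but WT 3 (0.0526 to 0.113) and under equal summed FPKM (0.0591).

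Pde11a, the remaining lowered gene, was at the bottom of the range. It averaged 0.0837 ± 0.0117 FPKM in cKO libraries and 0.276 ± 0.0794 FPKM in WT libraries, 3.29-fold lower (log2 difference -0.23, SE 0.0606, adjusted p = 0.0283). About 9.06 to 49.0 reads a library stood behind it, so its size is imprecise. The call was lost without any library but WT 2 (0.0573 to 0.0978) and where limma was run with no trend and no robust moderation (0.0547). Pde4dip, among the highest of the class by level, averaged 20.7 ± 0.457 FPKM in cKO libraries and 17.3 ± 2.76 FPKM in WT libraries and did not pass (log2 difference 0.26, interval 0.04 to 0.48, adjusted p = 0.1004). Pde2a shares 64.3% of its exon bases with another annotated gene on the same strand, and its values are uncertain.

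**Figure D3:**
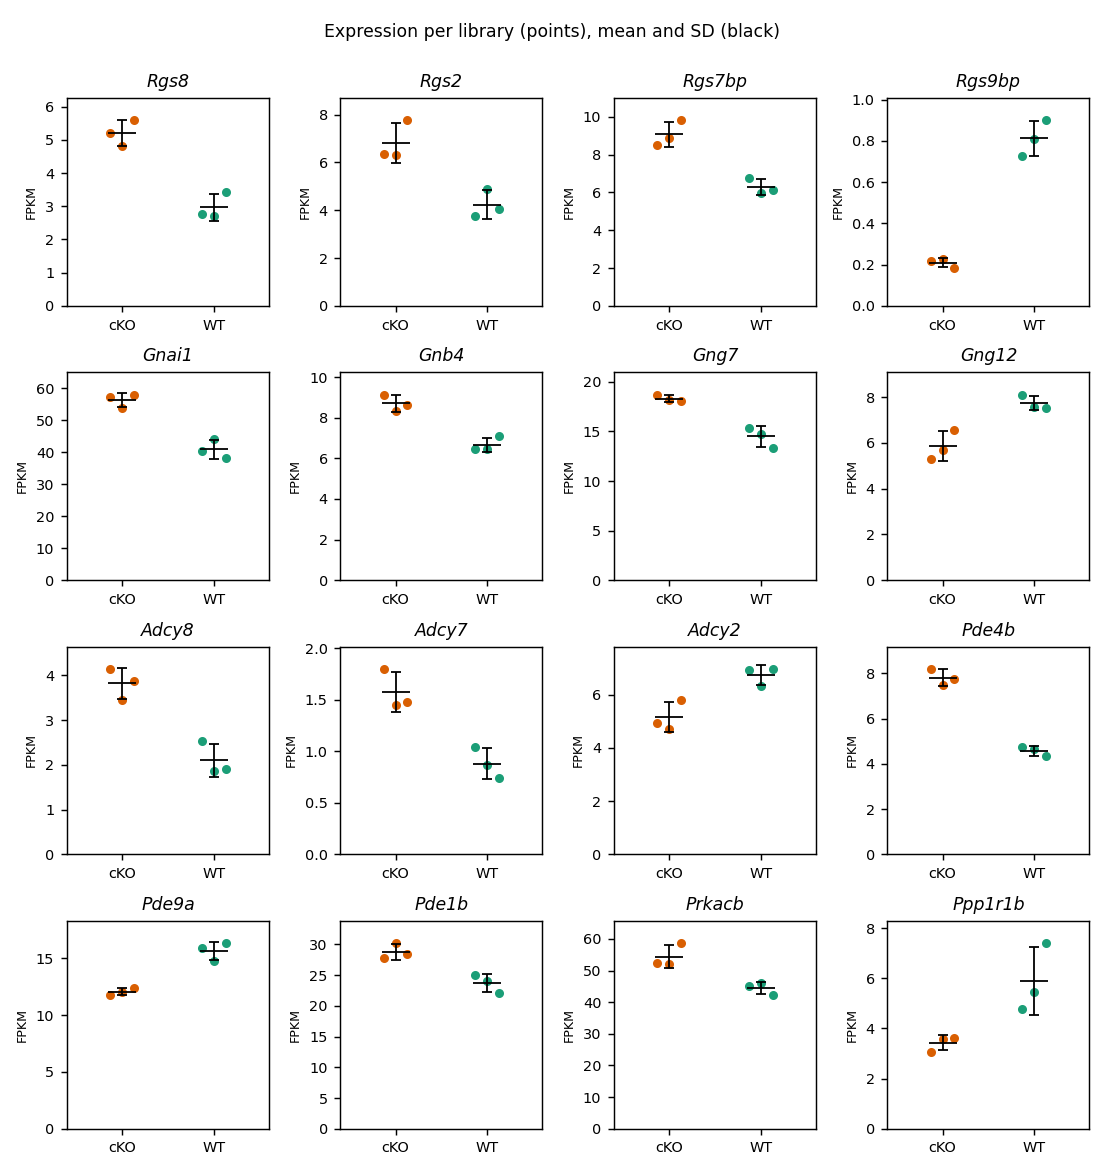
FPKM of 16 called members in each of the 3 cKO and 3 WT libraries (points, cKO left of WT), with the mean (line) and SD (bar); each panel is 1 gene with its own axis from 0. In every panel the cKO and WT points do not overlap, as for Pde4b at 7.48 to 8.20 FPKM in cKO and 4.33 to 4.75 FPKM in WT. Only called members were drawn, so this follows in large part from how they were picked. Gng4, Adcy9, Pde7a, Pde1c, Pde1a and Pde11a were called but not drawn.

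Of the PKA subunits, the catalytic subunit Prkacb rose and the other 5 did not pass. Prkacb (ENSMUSG00000005034, chromosome 3, 146729574 to 146812990, minus strand) had 52.4, 52.2 and 58.7 FPKM in the cKO libraries, against 45.1, 46.1 and 42.4 FPKM in the WT libraries. The groups were apart, with cKO 3 the highest, and the rise passed the test (log2 difference 0.28, SE 0.0680, adjusted p = 0.0203). The call was lost without WT 1 or cKO 3 (0.0605 to 0.0703). The regulatory subunits hold the catalytic ones inactive until cAMP binds. Prkar1a averaged 114 ± 6.34 FPKM in cKO libraries and 120.0 ± 1.67 FPKM in WT libraries, Prkar2b 79.2 ± 5.02 FPKM in cKO libraries and 81.0 ± 4.97 FPKM in WT libraries, and Prkar1b 74.6 ± 4.15 FPKM in cKO libraries and 73.2 ± 1.09 FPKM in WT libraries. None of the 4 regulatory genes passed, and over the 5 PKA genes that did not pass the widest intervals reached -0.22 and 0.20 on the log2 scale.

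Summed by role, the catalytic genes stood higher against the regulatory ones in cKO. The ratio of their summed FPKM was 0.345, 0.348 and 0.352 in the cKO libraries, against 0.311, 0.309 and 0.287 in the WT libraries. The 2 groups of ratios did not overlap. The 7 cAMP-specific phosphodiesterases summed to 44.0, 41.9 and 40.0 FPKM in the cKO libraries, against 32.4, 35.2 and 31.0 FPKM in the WT libraries. The 2 cGMP-specific ones summed to 13.4, 13.9 and 14.1 FPKM in the cKO libraries, against 17.6, 16.9 and 18.5 FPKM in the WT libraries. The sums of the first kind were higher and those of the second lower in every cKO library, while the 8 enzymes that act on both overlapped, at 50.4 ± 1.19 FPKM in cKO libraries and 46.4 ± 4.74 FPKM in WT libraries. These sums hold members already called (Pde4b, Pde7a, Pde9a and Prkacb among them), so they are no separate result, and they were not tested.

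**Figure D4:**
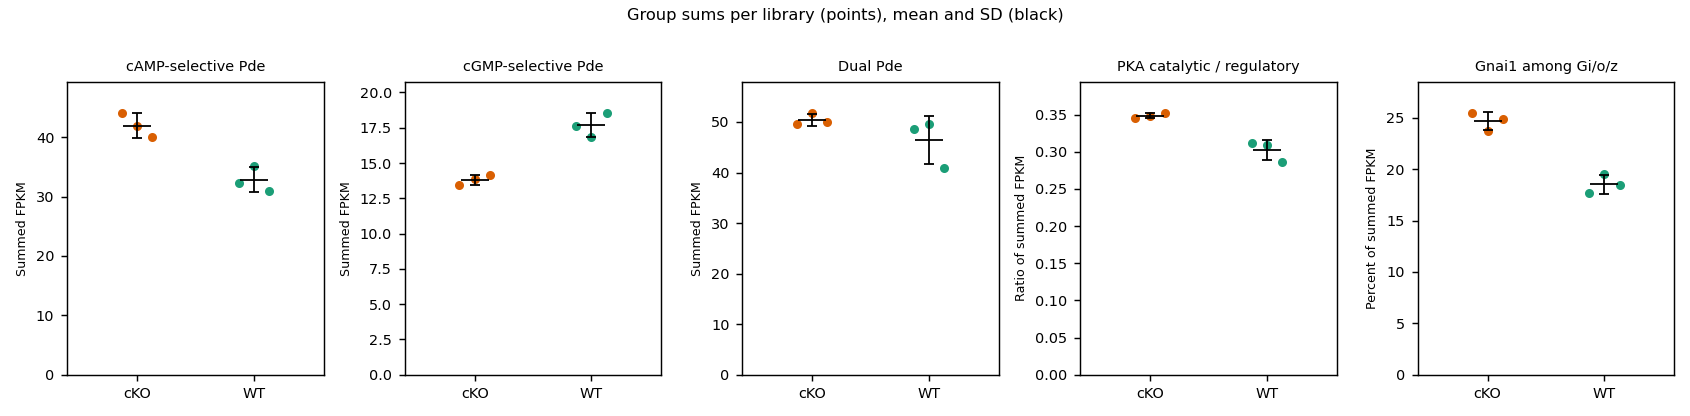
Summed FPKM of cAMP-specific, cGMP-specific and dual phosphodiesterases, the ratio of catalytic to regulatory PKA subunits, and the percent of Gi, Go and Gz message taken by Gnai1, in each of 3 cKO and 3 WT libraries (points, cKO left), with mean and SD in black. The cKO and WT points do not overlap in 4 of the 5 panels and overlap for the dual phosphodiesterases. The 4 panels hold members already called (Pde4b and Pde7a, Pde9a, Prkacb, and Gnai1), so their separation is no further support for those calls.

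Ppp1r1b, also known as DARPP-32, fell. When PKA phosphorylates this protein it inhibits protein phosphatase 1, and it is best known from medium spiny neurons of the striatum. Ppp1r1b (ENSMUSG00000061718, chromosome 11, 98348404 to 98357796, plus strand) had 3.07, 3.58 and 3.62 FPKM in the cKO libraries, against 4.79, 5.45 and 7.40 FPKM in the WT libraries. The cKO values were close together, and the WT values spread widely but all lay above them. The mean was 1.72-fold lower in cKO (log2 difference -0.62, SE 0.129, adjusted p = 0.0105), and without cKO 1 the adjusted p was 0.0507. On the opposite strand, 1700003D09Rik overlaps 15.7% of its exon bases. Of 13 striatal markers, 9 were measured, and they summed to 15.7 to 16.8 FPKM in cKO libraries and 11.9 to 14.7 FPKM in WT libraries and none was called lower. The defining marker Drd1 averaged 4.44 ± 0.506 FPKM in cKO libraries and 4.43 ± 0.918 FPKM in WT libraries, and Drd2, Gpr6, Isl1 and Six3 were not analysed here. The part of adjacent striatal tissue in the Ppp1r1b values was not tested.

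Of the 16 Rgs genes, Rgs8, Rgs2 and Rgs7bp rose and Rgs9bp fell, and each of these passed without every library in turn. Rgs8 (ENSMUSG00000042671, chromosome 1, 153653025 to 153700323, plus strand) belongs to the small R4 family that acts on Gi, Go and Gq. It had 5.21, 4.83 and 5.59 FPKM in the cKO libraries, against 2.76, 2.72 and 3.42 FPKM in the WT libraries. All cKO libraries were above all WT libraries, 1.76-fold (log2 difference 0.65, SE 0.0944, adjusted p = 0.00170). Rgs2 (ENSMUSG00000026360, chromosome 1, 143999338 to 144004161, minus strand), an R4 member that prefers Gq and is induced by activity, had 6.37, 6.31 and 7.77 FPKM in the cKO libraries, against 3.75, 4.89 and 4.06 FPKM in the WT libraries. The groups were again apart, 1.61-fold (log2 difference 0.58, SE 0.105, adjusted p = 0.00562).

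The 2 membrane anchors of R7 family RGS proteins went in opposite directions. Rgs7bp (ENSMUSG00000021719, chromosome 13, 104945904 to 105054930, minus strand) tethers the R7 proteins of neurons to the membrane. It had 8.51, 8.87 and 9.82 FPKM in the cKO libraries, against 6.79, 5.95 and 6.12 FPKM in the WT libraries. Each cKO library was above each WT library, 1.44-fold (log2 difference 0.47, SE 0.0793, adjusted p = 0.00402). Rgs9bp (ENSMUSG00000056043, chromosome 7, 35578993 to 35585582, minus strand) is the anchor known from retinal photoreceptors. It had 0.218, 0.225 and 0.183 FPKM in the cKO libraries, against 0.728, 0.808 and 0.900 FPKM in the WT libraries. Its mean was 3.89-fold lower in cKO, the largest ratio of means among the 22 called members, at about 28.0 to 139 reads a library (log2 difference -0.58, SE 0.0649, adjusted p = 0.000361). The 4 R7 proteins themselves (Rgs6, Rgs7, Rgs9 and Rgs11) did not pass, and summed to 19.2 ± 0.804 FPKM in cKO libraries and 20.3 ± 0.703 FPKM in WT libraries.

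The Rgs genes with the highest levels did not pass. Rgs4, an R4 protein well known from cortex, averaged 13.1 ± 0.839 FPKM in cKO libraries and 15.2 ± 1.75 FPKM in WT libraries (log2 difference -0.20, interval -0.39 to -0.01, adjusted p = 0.143). Rgs12, a large multidomain RGS protein, averaged 9.64 ± 0.428 FPKM in cKO libraries and 8.87 ± 0.540 FPKM in WT libraries (adjusted p = 0.320). Rgs19, of the RZ family, averaged 8.82 ± 0.591 FPKM in cKO libraries and 6.97 ± 1.08 FPKM in WT libraries, and its groups did not overlap (log2 difference 0.31, interval 0.08 to 0.54, adjusted p = 0.0669). Rgs19 passed without WT 2 (0.0312) and under equal summed FPKM (0.0469). Within the class the sum was 93.5 ± 2.31 FPKM in cKO libraries and 86.9 ± 2.18 FPKM in WT libraries.

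Genes around the members were followed with a list of 83 further genes of the pathway, of which 74 were measured. In cKO 9 of the 74 rose and 7 fell, 21.6% in all, against 15.8% of all genes, and 58 did not pass, 14 of them with an unadjusted p under 0.05. Their median log2 difference was 0.04. This list too was chosen with earlier results of these data known, so its share called only describes it. A clear fall was that of Nos1, the neuronal nitric oxide synthase whose product activates guanylyl cyclase. Nos1 averaged 4.07 ± 0.232 FPKM in cKO libraries and 8.73 ± 0.383 FPKM in WT libraries, 2.14-fold lower. The clearest rise was in Gucy1b3, a subunit of the guanylyl cyclase that nitric oxide activates, at 51.3 ± 3.38 FPKM in cKO libraries and 37.6 ± 3.62 FPKM in WT libraries (log2 difference 0.44). Both calls held without each library in turn.

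Of 11 PKA anchor genes named Akap, 3 fell and the other 8 did not pass, and of 5 receptor kinase genes named Grk, 1 rose and 4 did not pass. The anchor Akap5 averaged 2.90 ± 0.289 FPKM in cKO libraries and 4.29 ± 0.128 FPKM in WT libraries, and the anchor Akap12 averaged 11.4 ± 0.302 FPKM in cKO libraries and 14.9 ± 1.46 FPKM in WT libraries. Both fell. Grk3, a kinase that desensitises receptors, averaged 14.1 ± 0.676 FPKM in cKO libraries and 11.0 ± 0.610 FPKM in WT libraries, and Gpsm1, which binds free Gi subunits, averaged 33.6 ± 2.11 FPKM in cKO libraries and 27.5 ± 0.824 FPKM in WT libraries. Plcb4, a phospholipase C that Gq activates, averaged 3.65 ± 0.0855 FPKM in cKO libraries and 2.64 ± 0.202 FPKM in WT libraries. These 3 rose. The Akap12 call was lost without WT 1, cKO 1 or cKO 2 (0.0502 to 0.0676), that of Plcb4 without WT 1, cKO 2 or cKO 3 (0.0528 to 0.0702) and that of Gpsm1 without WT 1 or cKO 1 (0.0597 to 0.0713), while Akap5 and Grk3 held without each library. Further called genes were Creb1, Gucy1a3, Gpsm2, Ric8b and Rapgef6, which were higher, and Kcnj3, Akap7 and Crtc3, which were lower. Each of these 8 calls was lost in 4 to 6 of the 6 fits that left out 1 library (adjusted p of 0.0521 to 0.157 where lost), and that of Rapgef6 in all 6. Under equal summed FPKM 14 of the 74 rose and 4 fell.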

How the data were processed

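Neocortex RNA of mice at postnatal day 0 was measured by RNA-seq in 3 cKO and 3 WT libraries, from Trizol extracts and TruSeq libraries, per the labels' protocols. The authors deposited 1 table of FPKM values, named so in its header. Build mm10 and the tools bcl2fastq 1.8.4, STAR 2.5.4b, featureCounts 1.6.1, R 3.4.1 and DESeq2 1.22.1 are listed in the submitters' processing notes. How strand was treated, the annotation release and any filter on low genes were not found there. The 139 blank lines were left out. Coordinates came from GENCODE M21 (mm10), which matched 15661 of 15703 genes by identifier.

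Genes were tested with limma 3.58.1 (R 4.3.3) on log2(FPKM + 1), with genotype alone in the model, trend and robust moderation, 2-sided, with Benjamini-Hochberg adjustment over all 15703 genes. The procedure was tested on simulated data with 3 libraries in each group. It recovered 10% of 1.25-fold, 56% of 1.5-fold, 80% of 2-fold and 98% of 4-fold changes. A gene that did not pass is thus not shown to be unchanged. The simulation changed 50 of 15703 genes at each fold, all with a mean of at least 1 FPKM. Far fewer genes were changed in it than were called in the real data. The adjustment depends on that share, so the recovery in the real data can differ. A fold change is the ratio of mean FPKM, and intervals are 95% limma intervals. Groups and replicate numbers came from the sample titles.

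Depth was estimated from FPKM steps and exon length: 94.7% to 95.8% of low values came within 0.1 of a whole number of reads, against medians of 19.7% to 20.0% over other sizes. The read numbers are approximate and no count model was run on them.

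Members and lists were chosen with earlier results of these data known. Named were all called members (values per library for the 4 with the smallest p in each class), the 3 with the highest mean in each class, and up to 4 other pathway genes in each direction, except for items that are not reported here. Alternatives were a pseudocount of 0.1, a filter at a mean of 1 FPKM, 2 rescalings, leaving out each library, a replicate block, and limma without trend or robust moderation.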

Additional observations from a re-analysis of the deposited data

How the results depend on the processing

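No called member changed direction under any alternative that was run. Rescaling to equal summed FPKM, chosen after seeing the data, gave 1769 genes called higher, 6 members lower, and 14 pathway genes higher and 4 lower. Under it 10 members changed sign, none of them called: Rgs7, Pde6d, Pde3b and Prkar2a, and, with their values, Gnai3 (0.0196), Gnb5 (0.0148), Gnb1 (0.000697), Gng3 (0.0375), Adcy1 (0.0133) and Prkar2b (0.0361 on the log2 scale). Without 1 library at a time, 8 to 16 members were higher and 3 to 10 lower, 2 to 10 pathway genes higher and 3 to 7 lower, and 544 to 1572 of all genes higher and 830 to 1517 lower. Of the 18 abundant members described that did not pass, 7 log2 differences then ranged across 0, at -0.00129 to 0.0860 for Gnaq, -0.0799 to 0.0143 for Gnai3, -0.131 to 0.0572 for Gnb5, -0.0683 to 0.0219 for Gng3, -0.0520 to 0.0678 for Adcy5, -0.00603 to 0.0706 for Prkar1b and -0.0823 to 0.0135 for Prkar2b. The cause was not tested, and a fit without 1 library has fewer samples. A pseudocount of 0.1 gave 12 members higher and 10 lower, as did rescaling to the median gene. That rescaling could hardly change a call, because the log2 factors of the libraries were all between 0.00437 and 0.00447 as deposited. A mean of at least 1 FPKM gave 12 and 7, with 3 lower members below it not tested. Replicate numbers did not pair the samples (correlations of same-numbered deviations of -0.046, 0.0998 and -0.048), and with a replicate block 13 members were higher and 11 lower, with all 22 called members still called. The count model listed as an alternative was not run, since the deposited values are FPKM. Estimated reads were fewest for Pde11a, at 9.06 to 49.0 a library.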

Other observations

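Levels within a group were close for most members. Among the 67 members with a mean of at least 1 FPKM, the median coefficient of variation was 5.57% in cKO libraries and 8.14% in WT libraries, and the highest was 20.8% for Gng4 in cKO libraries and 23.1% for Ppp1r1b in WT libraries. The library WT 3 was the lowest of its group in 46 of the 75 members, where it was the lowest in 38.3% of all genes.

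Among members that did not pass, singled out here after their values were seen, Pde4d had the lowest adjusted p (0.0571). It had 6.36, 6.27 and 6.45 FPKM in the cKO libraries, against 5.67, 5.20 and 4.79 FPKM in the WT libraries, without overlap, and with Pde4b it belongs to the cAMP-specific Pde4 family. Rgs3, an R4 protein, had 2.97, 2.65 and 3.01 FPKM in the cKO libraries, against 2.33, 2.38 and 2.08 FPKM in the WT libraries, also without overlap (adjusted p = 0.0758). Both passed under equal summed FPKM.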
